A study of Mus musculus with 2 samples.

Results

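The vascular endothelial growth factor (VEGF) and angiopoietin system was described here as 10 genes, 6 ligands (Vegfa, Vegfc, Vegfd, Pgf, Angpt1 and Angpt2) and 4 receptors (Flt1, Kdr, Nrp1 and Nrp2). They were picked by symbol, and all 10 were found among the 32285 genes of the count matrix. The matrix held 1 droplet library of single cells. Per the labels, 2 aortas from 12-week-old C57BL/6J males were digested, the freed cells grew for 14 days in methylcellulose, and macrophage colonies (CFU-M) were collected. Cells that excluded the dye DAPI were sorted, and no label ties a cell to 1 of the mice. The labels name no altered gene, drug or control group, so the comparisons are between cell classes within the library. No replicate library was analysed, every interval below covers counting error only, and no p-value was computed.

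The cells were mostly not macrophages by their markers. Of 30755 cells, 22315 (72.6%) were mast cell-like, 5351 (17.4%) fibroblast-like and 2758 (8.97%) macrophage-like, and 331 stayed unnamed. The mast cell proteases Cma1 and Cpa3 stood at 21364 and 17872 UMIs per 1000000 gene UMIs (CPM) among mast cell-like cells. A UMI marks 1 captured RNA molecule. The complement gene C1qa stood at 2148 CPM among macrophage-like cells and the collagen gene Col1a1 at 2775 CPM among fibroblast-like cells. Median depth was 11445 UMIs among mast cell-like, 8823.5 among macrophage-like and 31563 among fibroblast-like cells. Besides genes, the matrix counted 3 MULTI-seq tags, DNA oligonucleotides that mark the cells of a suspension. Their names were Cafum, Matrigel and Macrophages, and what each tag marked is not said in the labels. The Cafum tag alone was called on 71.0% of mast cell-like cells, the Matrigel tag alone on 48.1% of fibroblast-like cells and the Macrophages tag alone on 70.6% of macrophage-like cells. Tags also crossed classes, since the Cafum tag alone was called on 350 fibroblast-like cells, the Matrigel tag alone on 83 mast cell-like cells and the Macrophages tag alone on 123. Members differed between classes under 1 tag too. With the Cafum tag alone, Flt1 stood at 253 CPM among fibroblast-like and 2.81 CPM among mast cell-like cells, and with the Macrophages tag alone, Nrp2 stood at 396 CPM among macrophage-like and 8.16 CPM among mast cell-like cells.

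VEGF ligands act through receptor tyrosine kinases that are best known on blood and lymphatic endothelium. Vegfa signals mainly through Kdr, while Flt1 binds Vegfa and Pgf tightly and can hold ligand away from Kdr. Neuropilins (Nrp1 and Nrp2) are co-receptors without a kinase domain that bind VEGFs and class 3 semaphorins. Angiopoietins bind the receptor Tek, with Angpt1 as its activator and Angpt2 as a partner that can block it. Perivascular cells, macrophages and mast cells are known sources of such ligands.

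The promoters of Flt1, Vegfd and Nrp2 are shown because these members had the highest ratios between their top class and the next class. Of the 10 members, 8 had an entry in the RefSeq promoter table (build GRCm38.p6), with 10 promoters among them. Each sequence runs 5′ to 3′ on the gene's strand, from 250 bases before the start site to 50 bases after it. Capitals mark matches to 5 motifs searched on both strands. These were the GATA motif (AGATAA), AP-1 (TGANTCA), ETS (GAGGAA), the hypoxia element (ACGTG) and the TATA box (TATAAA). Of 32817 promoters in the table, 11.2% held the GATA motif, 7.81% AP-1, 28.3% ETS, 19.6% the hypoxia element and 13.6% the TATA box.

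The Flt1 promoter lies at chr5:147725962-147726261 on the minus strand.
Flt1: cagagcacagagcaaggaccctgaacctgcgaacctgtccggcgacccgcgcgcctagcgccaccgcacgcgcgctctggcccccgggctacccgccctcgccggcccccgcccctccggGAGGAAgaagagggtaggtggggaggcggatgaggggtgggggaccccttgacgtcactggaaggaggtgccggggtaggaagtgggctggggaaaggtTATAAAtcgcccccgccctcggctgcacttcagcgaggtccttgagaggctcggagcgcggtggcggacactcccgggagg
It held an ETS match from 130 bases and a TATA box match from 31 bases before the start site.

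The Vegfd promoter lies at chrX:164373272-164373571 on the plus strand.
Vegfd: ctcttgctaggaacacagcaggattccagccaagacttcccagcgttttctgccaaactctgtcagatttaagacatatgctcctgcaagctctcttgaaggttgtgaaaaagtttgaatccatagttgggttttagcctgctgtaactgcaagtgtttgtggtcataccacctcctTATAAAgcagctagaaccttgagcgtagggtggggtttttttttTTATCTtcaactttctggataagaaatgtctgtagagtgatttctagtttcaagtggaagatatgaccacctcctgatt
It held a TATA box match from 73 bases before the start site, and a GATA match on the opposite strand, printed as its reverse complement, from 29 bases before it. This start site is that of the RefSeq entry. The gene coordinates given below begin earlier, at 164373378, so by them both matches lie within the gene.

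The Nrp2 promoter lies at chr1:62703067-62703366 on the plus strand.
Nrp2: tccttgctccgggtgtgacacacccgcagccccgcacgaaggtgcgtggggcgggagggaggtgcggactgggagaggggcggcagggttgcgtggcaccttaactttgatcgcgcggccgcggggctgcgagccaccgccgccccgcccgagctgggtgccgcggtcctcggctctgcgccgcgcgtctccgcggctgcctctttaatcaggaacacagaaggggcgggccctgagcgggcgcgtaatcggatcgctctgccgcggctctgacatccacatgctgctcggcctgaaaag
None of the 5 motifs was found in this window. Over the 10 promoters of the members, 2 held a GATA match, 3 an ETS match, 2 a TATA box match, 1 a hypoxia element and 0 an AP-1 match. A match describes these letters and is no evidence that a factor binds there.

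Droplets share free RNA and some hold more than 1 cell, so each level was read against a background level. This level was computed for each class from the other 2 classes. A gene's CPM in each of those classes was multiplied by the highest share at which that class's own markers appeared in the class of interest, and the products were added. A gene was called above background where the lower 95% bound of its CPM exceeded this sum. The 7 mast cell markers appeared among macrophage-like cells at 32.0% to 38.6% of their mast cell-like level, and among fibroblast-like cells at 13.5% to 15.5%. The 6 fibroblast markers appeared at 1.45% to 2.73% among mast cell-like and 1.88% to 3.95% among macrophage-like cells. The 6 macrophage markers appeared at 0.479% to 0.705% among mast cell-like and 0.909% to 1.95% among fibroblast-like cells.

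By this rule 10 of the 10 members were above background among fibroblast-like cells, 7 among mast cell-like cells and 5 among macrophage-like cells. Among all 26396 genes with a UMI in these cells, 84.4% were called among fibroblast-like, 76.8% among mast cell-like and 56.9% among macrophage-like cells, so the members' counts were near the background share in each class. All 6 ligands were called among fibroblast-like cells, 5 among mast cell-like cells and 2 among macrophage-like cells. All 4 receptors were called among fibroblast-like cells, 3 among macrophage-like cells and 2 among mast cell-like cells. At a level at least 2 times that of both other classes stood 5 members among fibroblast-like cells (26.7% of all genes did so), 2 among macrophage-like cells (12.2%) and 1 among mast cell-like cells (8.88%). The 1 among mast cell-like cells was Angpt1, the 2 among macrophage-like cells were Nrp2 and Kdr, and the 5 among fibroblast-like cells were Vegfa, Vegfd, Pgf, Angpt2 and Flt1. The median level of the 10 members was 58.8 CPM among fibroblast-like cells against 1.57 CPM over all genes, 10.1 against 1.10 CPM among macrophage-like cells, and 2.77 against 0.578 CPM among mast cell-like cells.

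**Figure D1:**
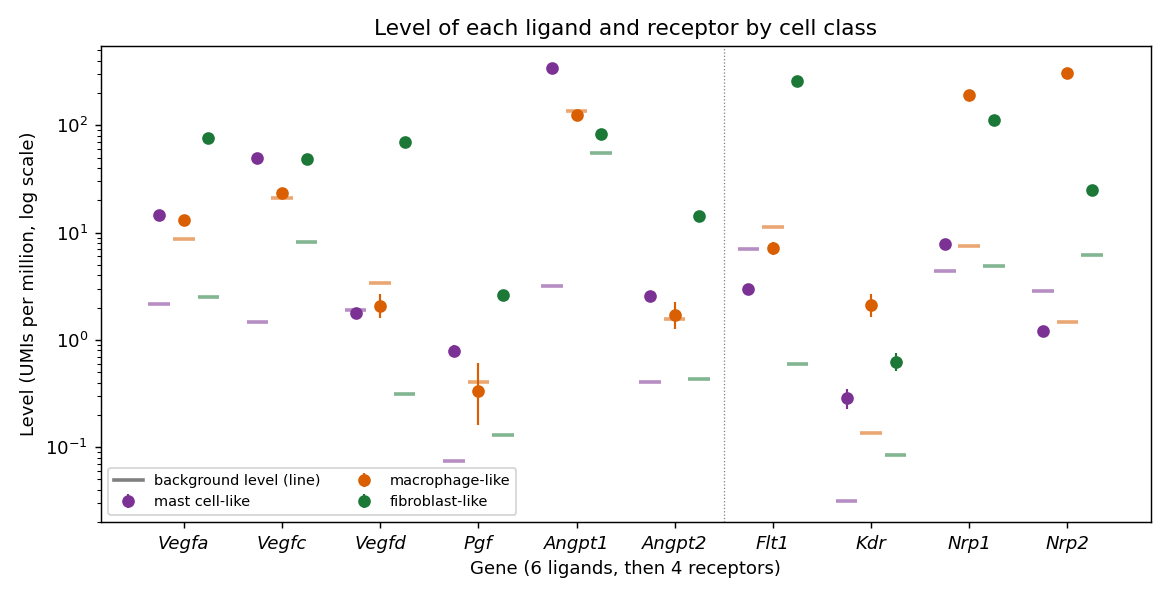
Level of the 6 ligands and 4 receptors in UMIs per 1000000 (log scale) in each of the 3 cell classes. Points are CPM of summed counts, bars are exact Poisson 95% intervals, and short lines are the background level of the same class. Angpt1 is highest among mast cell-like cells at 343 CPM, Nrp2 among macrophage-like cells at 307 CPM and Flt1 among fibroblast-like cells at 259 CPM.

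Angpt1 (chromosome 15, 42424723–42676977, minus strand, GRCm38), the activating ligand of Tek, was the 1 member with a mast cell-like level at least 2 times that of both other classes. It stood at 343 CPM there (341–345), 125 CPM among macrophage-like cells and 83.6 CPM among fibroblast-like cells. The mast cell-like level was 2.74 times (2.65–2.83) that of macrophage-like cells and 4.11 times (4.04–4.18) that of fibroblast-like cells. Mast cell-like cells held 84.8% of all 123375 Angpt1 UMIs in the kept cells. At 5500 UMIs per cell, 69.0% of mast cell-like cells had an Angpt1 UMI, against 27.9% of macrophage-like and 28.6% of fibroblast-like cells, and without thinning the shares were 82.3%, 33.4% and 61.7%. The macrophage-like level lay below its background level of 136 CPM and was not called. The fibroblast-like level was 1.5 times its background level of 55.7 CPM and was called. Over the 6 mast cell-like clusters Angpt1 ranged from 284 to 389 CPM, and all 6 lay above both other classes.

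The tags split these classes by how much mast cell RNA their droplets held. In macrophage-like cells with the Macrophages tag alone, Angpt1 stood at 16.9% of its mast cell-like level, within the 15.6% to 19.5% of the 7 mast cell markers there. In macrophage-like cells with more than 1 tag it stood at 64.9%, within 55.4% to 66.2% for the markers. In fibroblast-like cells with the Matrigel tag alone, Angpt1 stood at 15.8% of its mast cell-like level (54.4 CPM), above the 5.80% to 7.24% of the markers. In the 350 fibroblast-like cells with the Cafum tag it stood at 45.6%, above 33.2% to 38.4% for the markers. Angpt1 lay within the range of the mast cell markers in both macrophage-like groups and above it in both fibroblast-like groups. Without cells of more than 1 tag the macrophage-like level of Angpt1 was 60.0 CPM, under its background level of 71.6 CPM, and with the cells clustered more finely (Leiden resolution 1.0 in place of 0.5) it was 18.2 CPM, under 27.0 CPM. With called doublets kept it was 203 CPM and passed its background level of 182 CPM.

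**Figure D2:**
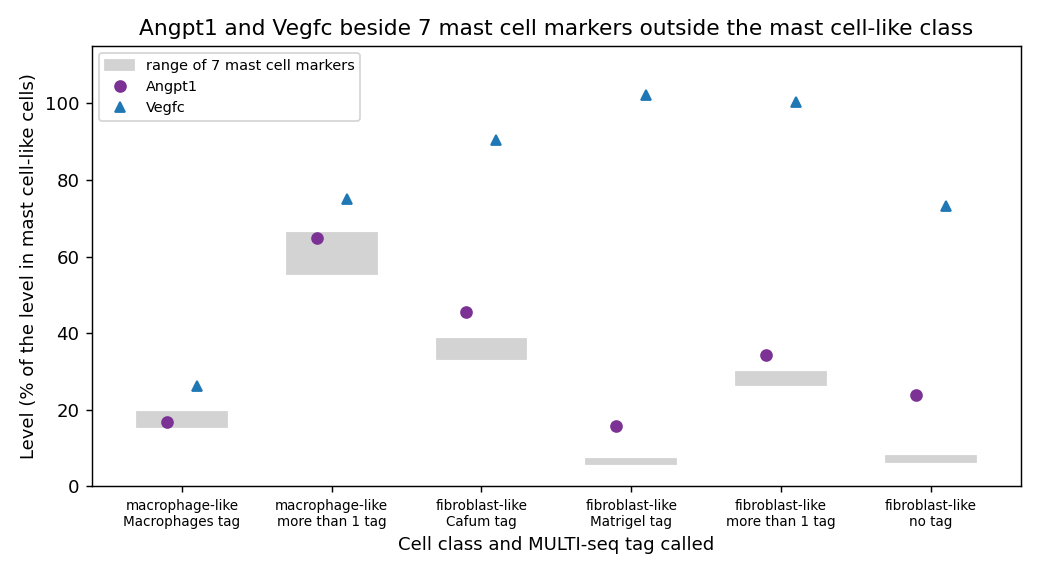
Level of Angpt1 (circles) and Vegfc (triangles) as a percentage of the mast cell-like level, among macrophage-like and fibroblast-like cells split by MULTI-seq tag, for groups of at least 300 cells. Grey boxes span 7 mast cell markers in the same cells. Angpt1 lies inside the box among macrophage-like cells (16.9% and 64.9%) and above it among fibroblast-like cells, while Vegfc lies above every box.

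Vegfc (chromosome 8, 54077606–54187096, plus strand), a ligand of lymphatic growth, had near-equal levels among mast cell-like and fibroblast-like cells. It stood at 50.0 CPM (49.3–50.8) among mast cell-like cells, 48.2 CPM (47.2–49.2) among fibroblast-like cells and 23.5 CPM (21.8–25.3) among macrophage-like cells. The ratio of mast cell-like to fibroblast-like level was 1.04 (1.01–1.07). The intervals of these 2 levels did not overlap by a narrow margin, and with 1 library a difference of this size has no replicate check. Their order also depended on the setting. The mast cell-like and fibroblast-like levels were 50.6 and 41.6 CPM at resolution 1.0. In cells with the most frequent tag of each class the order was reversed, at 48.0 CPM (47.2–48.9) and 51.1 CPM (49.6–52.6). Mast cell-like cells, the most numerous class, held 61.9% of Vegfc UMIs and fibroblast-like cells 34.3%. At 5500 UMIs a Vegfc UMI was found in 20.9% of mast cell-like, 18.3% of fibroblast-like and 8.38% of macrophage-like cells, and without thinning the shares were 37.4%, 53.5% and 14.9%. Vegfc in Matrigel-tagged fibroblast-like cells was 102% of the mast cell-like level, where the mast cell markers were at most 7.24%. The macrophage-like call was narrow, at 23.5 CPM against a background level of 21.2 CPM. Without cells of more than 1 tag it held, at 14.0 against 11.8 CPM. It was lost at resolution 1.0 (5.19 against 5.01 CPM), with thinned counts (19.8 against 17.4 CPM) and in cells with the Macrophages tag alone (13.2 against 12.2 CPM).

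Vegfa (chromosome 17, 46016993–46032369, minus strand), the main ligand of Kdr, was highest among fibroblast-like cells. It stood at 76.7 CPM (75.4–78) there, 14.7 CPM (14.3–15.1) among mast cell-like cells and 13 CPM (11.7–14.4) among macrophage-like cells, above background in all 3 classes. The fibroblast-like level was 5.21 times (5.04–5.39) the mast cell-like and 5.90 times (5.33–6.54) the macrophage-like level. The mast cell-like level was 1.13 times (1.02–1.26) the macrophage-like level. In cells with the most frequent tag of each class these 2 levels were 14.6 CPM (14.1–15.1) and 11.1 CPM (9.56–12.8). At 5500 UMIs, 31.2% of fibroblast-like, 7.98% of mast cell-like and 5.87% of macrophage-like cells had a Vegfa UMI, and 74.7%, 16.6% and 9.46% without thinning. Fibroblast-like cells held 72.8% of Vegfa UMIs and mast cell-like cells 24.3%. At resolution 1.0 the macrophage-like level was 8.29 CPM, still above its background level of 4.14 CPM.

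Vegfa also differed among mast cell-like clusters. The highest level, 24.7 CPM, was in cluster 0, led by Gm4847 and the Mas-related receptor genes Mrgprb1 and Mrgprb2. The lowest, 8.51 CPM, was in cluster 6, led by Cenpa, Ccnb2 and other genes of mitosis, and the histone-led cluster 7 was near it at 9.19 CPM. The highest was 2.91 times the lowest, a wider spread than the 1.60 times of Vegfc and 1.37 times of Angpt1 over the same 6 clusters. Angpt2 and Pgf, at lower levels, had wider spreads still, at 4.62 and 3.04 times. Nrp1 had its highest mast cell-like level, 12.5 CPM, in cluster 0 too. Median depth was 10053.5 UMIs per cell in cluster 0, 17174 in cluster 6 and 23779 in cluster 7, and its part in these differences was not tested.

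Vegfd (chromosome X, 164373378–164402650, plus strand), another ligand of lymphatic growth, was found almost wholly among fibroblast-like cells. It stood at 69.3 CPM (68.1–70.6) there, against 1.76 CPM among mast cell-like and 2.07 CPM among macrophage-like cells, both under their background levels of 1.90 and 3.42 CPM. Fibroblast-like cells held 94.6% of Vegfd UMIs. The level was 39.3 times (36.1–43.0) that of mast cell-like cells. A Vegfd UMI was found in 28.2% of thinned fibroblast-like cells, against 1.02% of mast cell-like cells, a class read as background here, and the unthinned shares were 68.5% and 2.31%. In mast cell-like cells the gene was called at resolution 1.0 (1.71 against 1.54 CPM) and with the median carry-over (1.76 against 1.16 CPM). Among fibroblast-like cells, Vegfd stood at 83.5 CPM with the Matrigel tag and 38.3 CPM with the Cafum tag. Mast cell RNA was higher in the latter, with Cma1 at 7916 against 1395 CPM, and its part in the difference was not tested.

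Angpt2 (chromosome 8, 18690263–18741562, minus strand), which can oppose Angpt1 at Tek, stood at 14.4 CPM (13.8–14.9) among fibroblast-like cells, 2.56 CPM among mast cell-like cells and 1.71 CPM among macrophage-like cells. The first 2 were above background. The fibroblast-like level was 5.60 times (5.17–6.08) the mast cell-like level, and 6.45% of thinned fibroblast-like cells had a UMI, against 1.03% of mast cell-like and 0.637% of macrophage-like cells. At resolution 1.0 the macrophage-like level, 1.37 CPM, was called against a background level of 0.757 CPM. In mast cell-like clusters Angpt2 ranged from 1.13 CPM in cluster 0 to 5.20 CPM in the histone-led cluster 7. Mcph1, which overlaps Angpt2 on the other strand, moved the same way, from 19.6 CPM in cluster 0 to 43.3 CPM in cluster 7. The 2 genes have separate counts. The use of strand in counting is not given, and whether reads of Mcph1 entered the count of Angpt2 was not tested. Angpt1 and Nrp2 also overlap a gene on the other strand, Gm17473 and Gm29083, which had at most 1.64 and 5.74 CPM in any cluster at resolution 0.5.

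Pgf (chromosome 12, 85166635–85177790, minus strand), a ligand of Flt1, was scarce. Its 734 UMIs in the kept cells gave 2.64 CPM (2.40–2.89) among fibroblast-like, 0.791 CPM (0.695–0.898) among mast cell-like and 0.334 CPM (0.160–0.615) among macrophage-like cells, the last under its background level of 0.409 CPM. At resolution 1.0 the macrophage-like level was 0.144 CPM and again not called. A Pgf UMI was found in 1.15% of thinned fibroblast-like cells and in 0.398% of mast cell-like cells. In fibroblast-like cells 63.6% of the Pgf UMIs came from 1% of the cells.

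**Figure D3:**
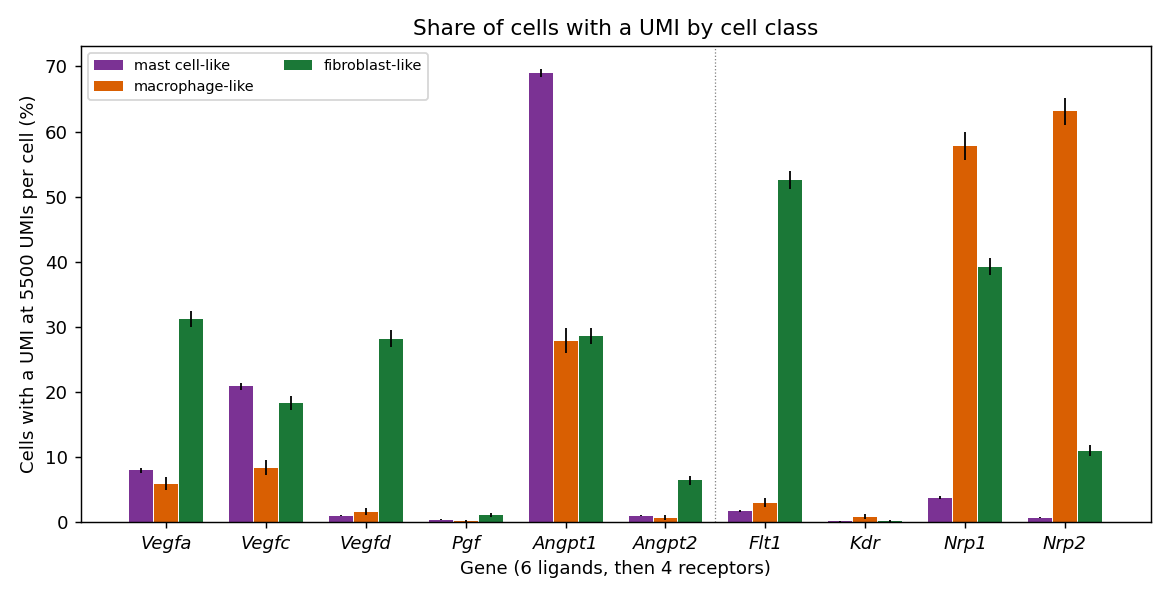
Share of cells with at least 1 UMI of each gene after thinning every cell to 5500 UMIs, with exact 95% intervals, over 20850 mast cell-like, 5211 fibroblast-like and 2197 macrophage-like cells. Angpt1 is found in 69.0% of mast cell-like cells, Nrp1 and Nrp2 in 57.8% and 63.1% of macrophage-like cells, and Flt1 in 52.5% of fibroblast-like cells.

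Flt1 (chromosome 5, 147561604–147726011, minus strand), the receptor that binds Vegfa and Pgf, was found mainly among fibroblast-like cells in this library. It stood at 259 CPM (256–261) there, 7.12 CPM among macrophage-like cells and 2.99 CPM among mast cell-like cells, the last 2 under their background levels of 11.4 and 7.10 CPM. Fibroblast-like cells held 96.9% of the 46759 Flt1 UMIs. A Flt1 UMI was found in 52.5% of thinned fibroblast-like cells, 2.96% of macrophage-like cells and 1.71% of mast cell-like cells, and in 76.6%, 5.80% and 3.98% without thinning. The level was 36.3 times (31.7–41.7) that of macrophage-like cells. Fibroblast-like cells with the Matrigel tag had 263 CPM, those with the Cafum tag 253 CPM, the 1096 with no tag 349.8 CPM and the 1284 with more than 1 tag 197 CPM.

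Nrp2 (chromosome 1, 62703285–62818695, plus strand) marked the macrophage-like class. It stood at 307 CPM (301–313) there, 25.1 CPM (24.4–25.9) among fibroblast-like cells and 1.21 CPM among mast cell-like cells, the last under its background level of 2.85 CPM. The macrophage-like level was 12.2 times (11.8–12.6) the fibroblast-like level. Although macrophage-like cells were 8.97% of the library, they held 65.2% of Nrp2 UMIs. A Nrp2 UMI was found in 63.1% of thinned macrophage-like, 11% of fibroblast-like and 0.715% of mast cell-like cells, and in 71.7%, 39.5% and 1.56% without thinning.

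Nrp1 (chromosome 8, 128358604–128503363, plus strand) was shared by macrophage-like and fibroblast-like cells, at 191 CPM (186–196) and 113 CPM (111–114). The ratio was 1.69 (1.64–1.74). In mast cell-like cells it stood at 7.81 CPM (7.5–8.13), above a background level of 4.42 CPM. A Nrp1 UMI was found in 57.8% of thinned macrophage-like, 39.3% of fibroblast-like and 3.79% of mast cell-like cells, and in 71.9%, 77.7% and 8.55% without thinning. The order of the first 2 classes changed with thinning, and their median depths were 8824 and 31563 UMIs. Fibroblast-like cells held 70.4% of Nrp1 UMIs and macrophage-like cells 20.3%. Nrp1 and Nrp2 were found together in 885 of 2197 thinned macrophage-like cells, where the product of their shares gave 802, a ratio of 1.10 (1.03–1.18). With only cells of 1 called tag the ratio was 1.06 (0.981–1.14), an interval that includes 1. In fibroblast-like cells Nrp1 and Flt1 were found together 1.11 times (1.05–1.17) as often as the product of their shares, and 1.13 times (1.05–1.22) in cells with 1 tag. Both genes differed between the finer clusters of this class described below, with the same top cluster, and the part of this in the ratio was not tested. Vegfa and Flt1 gave 1.05 (0.978–1.12) and Vegfd and Flt1 0.945 (0.878–1.02), both with intervals that include 1.

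Macrophage-like cells differed in how much mast cell RNA their droplets held, and the members differed between finer clusters of this class. More than 1 tag was called on 26.4% of macrophage-like cells, and at resolution 1.0 the class separated into 2 clusters. The one that kept the macrophage-like name had 1683 cells with Cma1 at 1399 CPM, and was led by Cd74, Mrc1 and Hspa1b. The other had 1078 cells, 1075 of them macrophage-like at resolution 0.5, with Cma1 at 12847 and C1qa at 1168 CPM, and was led by S100a8, S100a9 and Lyz1. In the first cluster Nrp2 stood at 460 CPM, Nrp1 at 287 CPM and Kdr at 3.67 CPM, and in the second at 173, 107 and 0.745 CPM. Angpt1 stood at 18.2 CPM in the first cluster, under its background level of 27.0 CPM, and at 222 CPM in the second. The 2 clusters differed both in mast cell RNA and in leading genes, and the part of each in these levels was not tested.

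Kdr (chromosome 5, 75932827–75978458, minus strand), the main VEGF receptor of endothelium, was near the limit of the data. Its 261 UMIs gave 2.11 CPM (1.62–2.70) among macrophage-like, 0.622 CPM (0.511–0.750) among fibroblast-like and 0.286 CPM (0.229–0.352) among mast cell-like cells, each above its background level. A Kdr UMI was found in 0.774% of thinned macrophage-like, 0.192% of fibroblast-like and 0.153% of mast cell-like cells. Of the Kdr UMIs 39.1% (102) came from 13 cells, picked for UMIs of at least 3 of 5 endothelial genes (Cdh5, Emcn, Cldn5, Esam and Plvap). Of the 13 cells 8 were in the fibroblast-like and 5 in the macrophage-like class, and 8 carried more than 1 tag. Over these cells Kdr stood at 361 CPM (294–438), Flt1 at 591 CPM, Angpt2 at 163 CPM and Tek at 63.7 CPM. Of the 13, 8 had a Kdr UMI, 11 a Flt1 UMI, 5 an Angpt2 UMI and 4 a Tek UMI. In the macrophage-like class 1 cell held 22 of the 63 Kdr UMIs, and in the fibroblast-like class 1 cell held 30 of 109. Without the 13 cells Kdr stood at 1.24 CPM (0.873–1.71) among macrophage-like and 0.189 CPM (0.130–0.265) among fibroblast-like cells, while Flt1 among fibroblast-like cells was 258 CPM. With at most 5% mitochondrial UMIs the macrophage-like level was 1.32 CPM, and at resolution 1.0 it was 3.67 CPM. In Matrigel-tagged fibroblast-like cells Kdr stood at 0.213 CPM. Of the other endothelial markers, Pecam1 and Vwf were highest among mast cell-like cells, at 87.7 and 19.5 CPM, where Cdh5 stood at 0.0296 CPM.

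The fibroblast-like class was not uniform in these genes. At resolution 1.0 it separated mainly into cluster 2 (3784 cells, led by Chl1, Fmo2 and Csmd1), cluster 11 (942 cells, led by Crabp1, Ltbp1 and Dlk1) and cluster 12 (645 cells, led by Cfd, Hp and H19). Of the 645 cells of cluster 12, 588 were fibroblast-like and 57 mast cell-like at resolution 0.5. Cluster 11 was left unnamed because the smooth muscle gene Acta2 was among its leading genes. Flt1 stood at 323 CPM in cluster 2, 109 CPM in cluster 12 and 92.0 CPM in cluster 11. Nrp1 had the same top cluster, at 134 CPM against 54.9 and 60.4 CPM, and so had Vegfa, at 83.5 against 58.9 and 52.3 CPM. Vegfd went the other way, at 64.9 CPM in cluster 2, 75.2 CPM in cluster 12 and 81.3 CPM in cluster 11. Vegfc stood at 58.2 CPM in cluster 11, 42.7 CPM in cluster 2 and 25.7 CPM in cluster 12. Cluster 12 had the highest Pgf (6.05 CPM) and Kdr (9.39 CPM) of the 3, and it held 5 of the 13 cells with endothelial genes. Col1a1 ran from 3358 CPM in cluster 2 to 1076 CPM in cluster 11, and Cma1 was highest in cluster 12 at 7464 CPM. Over the whole class the smooth muscle markers Acta2 and Tagln stood at 31.0 and 46.0 CPM. Notch3 and Rgs5 stood at 11.9 and 4.75 CPM, and Myh11 and Cnn1 at 0.525 and 0.108 CPM. Of the fat cell markers, Fabp4, Lpl and Adipoq stood at 468, 192 and 6.35 CPM. The fat cell markers Plin1 and Cidec were near 0, at 0.359 and 0.434 CPM. Fabp4 and Lpl also stood at 51.6 and 157 CPM among macrophage-like cells. The part of cells with such markers in the levels of the members was not tested.

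**Figure D4:**
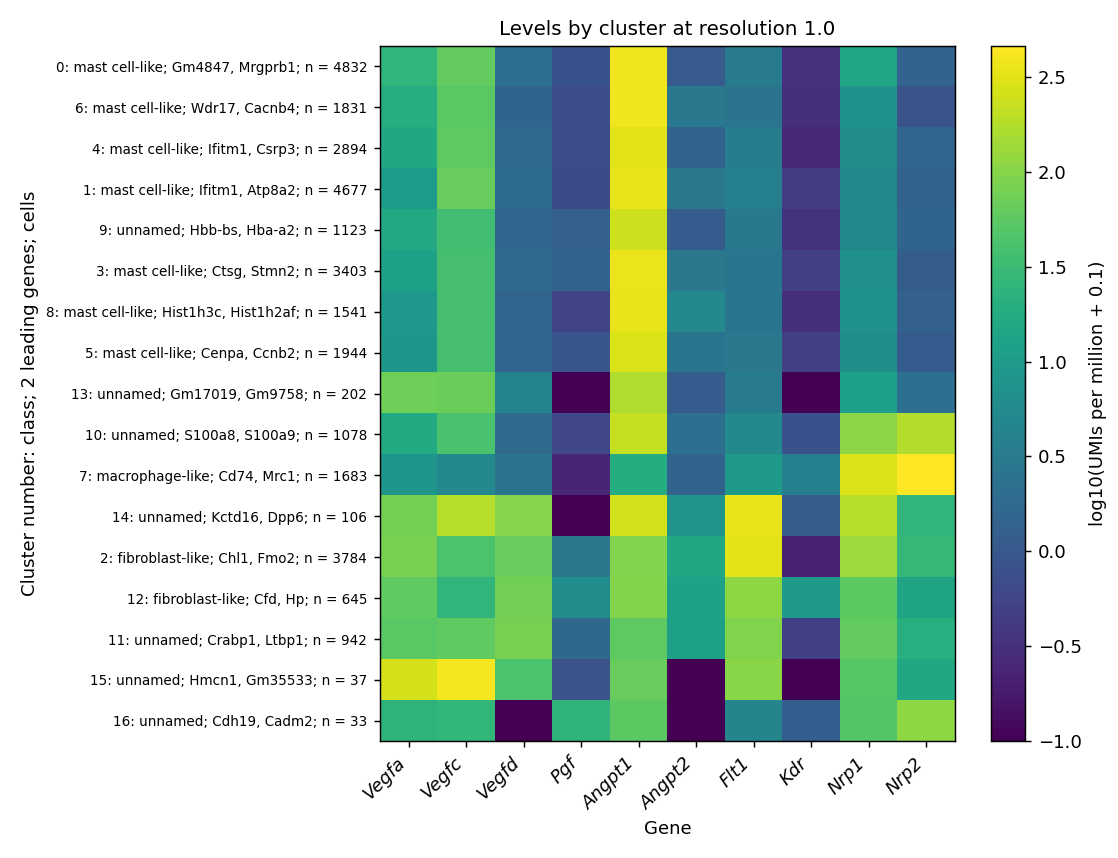
Level of each member (columns) in 17 clusters at resolution 1.0 (rows, with class, leading genes and number of cells), as log10 of UMIs per 1000000 plus 0.1. Angpt1 is high in all mast cell-like rows, Nrp1 and Nrp2 in the macrophage-like row (287 and 460 CPM), and Flt1 is highest in clusters 14 and 2 (345 and 323 CPM).

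Other genes of the VEGF and Tie pathway were read from a list of 8. In fibroblast-like cells 8 of 8 were above background, among macrophage-like cells 6 and among mast cell-like cells 5, beside 84.4%, 56.9% and 76.8% of all genes. The median of the 8 genes was 3.51 CPM among fibroblast-like, 0.669 CPM among macrophage-like and 0.696 CPM among mast cell-like cells, beside 1.57, 1.10 and 0.578 CPM over all genes. Vegfb, a ligand of Flt1, stood at 76.9 CPM among mast cell-like, 41.9 CPM among macrophage-like and 55.7 CPM among fibroblast-like cells, each above background. Svep1, a matrix protein that binds angiopoietins, stood at 179 CPM among fibroblast-like cells and under background elsewhere (3.48 and 2.49 CPM). Both receptors on this list that serve the ligands above were low. Tek, the angiopoietin receptor, stood at 2.03 CPM among fibroblast-like, 0.788 CPM among mast cell-like and 0.769 CPM among macrophage-like cells. Flt4, the receptor of Vegfc and Vegfd, stood at 0.297 CPM among fibroblast-like cells, from 52 UMIs, and at 0.0197 CPM among mast cell-like cells, from 6 UMIs. Ptprb, a phosphatase that acts on Tek, was above background in all 3 classes, at 0.2 to 0.568 CPM. Angpt4 stood at 10.1 CPM among fibroblast-like and 0.604 CPM among mast cell-like cells, above background in both. Egfl7 was above background in all 3 classes, at 4.99 CPM among fibroblast-like, 1.77 CPM among macrophage-like and 1.38 CPM among mast cell-like cells. Tie1 had 23 UMIs in the kept cells, of which 20 were in the 13 cells with endothelial genes.

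Class 3 semaphorins and plexins share the neuropilins as ligands and partners. Of 12 such genes, 12 were above background among fibroblast-like, 7 among macrophage-like and 6 among mast cell-like cells, where 84.4%, 56.9% and 76.8% of all genes were. Their medians were 4.84, 1.96 and 0.455 CPM in that order of classes, against 1.57, 1.10 and 0.578 CPM over all genes. Plxna4, a plexin that pairs with neuropilins, stood at 82.4 CPM among macrophage-like cells, where Nrp1 and Nrp2 were highest, against 4.09 and 0.361 CPM among fibroblast-like and mast cell-like cells. Plxnd1, the receptor of Sema3e, stood at 42.7 CPM among macrophage-like, 15.8 CPM among mast cell-like and 12.5 CPM among fibroblast-like cells. Plxna1 was above background among fibroblast-like and macrophage-like cells, at 14.0 and 7.52 CPM, and Plxna3 in all 3 classes, at 0.529 to 2.57 CPM. Among the ligands, Sema3a was highest among fibroblast-like cells at 48.1 CPM and under background in the other 2 classes. Sema3e was highest among mast cell-like cells at 13 CPM and also above background among fibroblast-like cells, at 5.41 CPM. Sema3c was above background in all 3 classes, at 2.05 to 3.75 CPM. Sema3f, at 0.958 and 0.227 CPM, was called among fibroblast-like and mast cell-like cells, and Sema3g, at 0.234 and 0.134 CPM, among fibroblast-like and macrophage-like cells, the last from 4 UMIs. The plexin Plxna2 was above background in all 3 classes, at 21.8 CPM among fibroblast-like, 7.42 CPM among mast cell-like and 4.55 CPM among macrophage-like cells.

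Of 14 other angiogenic growth factors, 13 were above background among fibroblast-like, 9 among macrophage-like and 4 among mast cell-like cells (84.4%, 56.9% and 76.8% of all genes). The medians of this list were 20.3, 13.7 and 0.722 CPM, and those of all genes 1.57, 1.10 and 0.578 CPM. Cxcl12, a chemokine that draws vascular progenitors, stood at 614 CPM among fibroblast-like cells. Igf1 stood at 234 CPM among macrophage-like and 59.3 CPM among fibroblast-like cells. Tgfb1 stood at 228 CPM among mast cell-like, 204 CPM among macrophage-like and 67.8 CPM among fibroblast-like cells, and Pdgfa between 20.9 and 23.8 CPM in all 3 classes. Pdgfc stood at 154 CPM among macrophage-like and 12.4 CPM among fibroblast-like cells. Fgf2, called among fibroblast-like and mast cell-like cells, stood at 40.6 and 11.5 CPM. Hgf, the ligand of Met, was above background in all 3 classes, at 26.2 CPM among macrophage-like, 18.2 CPM among fibroblast-like and 2.04 CPM among mast cell-like cells. Tgfb3 and Edn1, which encodes endothelin-1, were called among fibroblast-like cells, at 11.5 and 2.54 CPM, and among macrophage-like cells, at 1.67 and 2.11 CPM.

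Of 9 angiogenesis inhibitors, 8 were above background among fibroblast-like, 4 among mast cell-like and 3 among macrophage-like cells, beside 84.4%, 76.8% and 56.9% of all genes. In the same order the medians were 91.7, 2.73 and 4.15 CPM, and 1.57, 0.578 and 1.10 CPM over all genes. Serpinf1, which encodes pigment epithelium-derived factor, stood at 520 CPM among fibroblast-like and 36.5 CPM among macrophage-like cells. Timp3, an inhibitor of metalloproteases that also binds Kdr, stood at 319 CPM among fibroblast-like cells and under background elsewhere. Thbs1 stood at 91.7 CPM among fibroblast-like and 23.3 CPM among macrophage-like cells. The highest called inhibitor among mast cell-like cells was Adamts1, at 6.95 CPM against 119 CPM among fibroblast-like cells. Col18a1, the source of endostatin, was called in the same 2 classes, at 4.14 and 78.4 CPM. Cnmd was called in all 3, at 0.0722 to 0.297 CPM.

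Hypoxia raises Vegfa through Hif1a in many cells, and 14 genes of that response were listed. Above background were 14 among fibroblast-like, 11 among mast cell-like and 10 among macrophage-like cells, and of all genes 84.4%, 76.8% and 56.9%. Medians were 58.7, 22.3 and 13.7 CPM, against 1.57, 0.578 and 1.10 CPM over all genes. Hif1a itself stood at 221 CPM among fibroblast-like, 189 CPM among mast cell-like and 165 CPM among macrophage-like cells. At a level at least 2 times that of both other classes stood 8 of the 14 among fibroblast-like cells, 1 among mast cell-like and 0 among macrophage-like cells, beside 26.7%, 8.88% and 12.2% of all genes. Bnip3, a mitophagy gene, stood at 228 CPM among fibroblast-like, 35.0 CPM among mast cell-like and 27.1 CPM among macrophage-like cells. Ndrg1 stood at 65.6, 59.1 and 35.8 CPM in the same order. Arnt, the partner of Hif1a, was highest among macrophage-like cells at 101 CPM. Above background in all 3 classes were also Vhl (10.8 to 20.3 CPM), which marks Hif1a for breakdown, the prolyl hydroxylases Egln1 (26.9 to 75.8 CPM) and Egln2 (18.9 to 25.4 CPM), the glucose carrier Slc2a1 (16.3 to 54.4 CPM) and the kinase Pdk1 (2.93 to 28.5 CPM). Epas1 was called among fibroblast-like and macrophage-like cells, at 63.1 and 3.91 CPM. Ankrd37 and Car9 were called among fibroblast-like cells, at 26.3 and 2.49 CPM, and among mast cell-like cells, at 1.35 and 6.35 CPM.

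Genes whose levels were most like those of a member were ranked over 10 clusters of at least 100 cells, which share 1 library and differ in depth. For Vegfd they were Bcat1, Cyp7b1 and Bicc1, for Flt1 Mrc2, Nfib and Sned1 (Pearson r of log2 levels 1.00 for all 6), and for Nrp2 Plk2 (1.00), Abca9 (0.99) and Gm49144 (0.99). For Nrp1 they were Itsn1, Negr1 and Sash1 (0.99 each), and for Vegfc Scmh1, Zfp521 and Zfp53 (0.98 each). For Vegfa they were Grik2 (0.98), Tll1 (0.96) and Fubp3 (0.96), and for Angpt1 Klhdc3 (0.98), Wdr17 (0.97) and Tmed8 (0.96). Pgf, Angpt2 and Kdr did not reach the minimum of 20 CPM in any of these clusters. Among the clusters 6 were mast cell-like, but only 1 was macrophage-like and 1 fibroblast-like. For a gene found mainly in 1 of these classes, r thus rests on few clusters.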

How the data were processed

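Per the labels' protocols, 1 gene expression library was made with a 10x 3′ kit from sorted cells of aortic colonies. Unnormalized counts were deposited by the authors, 1 value per gene and barcode, each a number of unique molecular identifiers (UMIs). Cell Ranger 7.0.0, STAR, R 4.1.3, Seurat 4.1.1 and the build mm10 are named in the submitters' processing notes. The counting of intronic reads and the use of strand are not given in the sources used here.

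A barcode passed with 500 or more genes, 1000 or more UMIs and no more than 10% mitochondrial UMIs, as 33964 of 34813 did. Scrublet, run through scanpy 1.11.5, called 3245 doublets at a threshold of 0.564, and 37.1% of simulated doublets lay above that score. Removing those that had passed left 30755 cells, with undetected doublets among them. Leiden clustering (leidenalg 0.10.2) at resolution 0.5 used 2000 variable genes, 30 principal components and 15 neighbours. The 131 listed genes, mitochondrial genes and ribosomal genes took no part in it, so levels of the members could be compared between clusters. A cluster took the name of the marker list with the highest median share of its top level, if that share was at least 0.2, no other of the 3 main lists reached 50% of it, and its leading genes did not go against the name. These names were rebuilt without an annotation by the authors and may differ from the study's. Levels are UMIs per 1000000 gene UMIs (CPM) of counts summed over a class, with exact Poisson 95% intervals. Shares of cells are given after each cell was thinned to 5500 UMIs, with exact Clopper-Pearson 95% intervals. A MULTI-seq tag was called at 2 times its background count, or 1.4 times for the Cafum tag, whose background was higher.

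The members and lists were chosen with earlier results of these data known. The thresholds for cluster names and tags were set after seeing the data. All 10 members are described. From each pathway list the text names the 2 highest genes in each class and genes above background in more than 1 class. Genes most alike in pattern were the 3 with the highest Pearson correlation of log2(CPM + 1) over clusters of at least 100 cells, among genes with at least 20 CPM in 1 of them. With 1 library, cells are not replicates, and no p-value was computed. The alternatives were called doublets kept, cells with more than 1 tag left out, resolution 1.0, at most 5% mitochondrial UMIs, the median carry-over of markers, thinned counts, unthinned shares, and at least 2 UMIs per cell. An alternative with only the most frequent tag of each class, and a description without cells that held endothelial genes, were chosen after seeing the data. The second sample, a library of tags, was not analysed here.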

Additional observations from a re-analysis of the deposited data

How the results depend on the processing

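No paired analysis was possible because 1 library was analysed and the labels' groups share fewer than 2 replicate numbers. The number of members above background was 10 in fibroblast-like cells under all 7 alternatives. In mast cell-like cells it was 7 under 5 alternatives and 8 at resolution 1.0 and with the median carry-over, where Vegfd was added. In macrophage-like cells it ranged from 4 to 6. It was 4 with thinned counts and in cells with the most frequent tag of each class, where Vegfc was lost, and 6 with called doublets kept, where Angpt1 was added. At resolution 1.0 it was 5, with Angpt2 in place of Vegfc. Of the 30 levels, 12 stayed within their counting interval at resolution 1.0, 18 with called doublets kept, 18 without cells of more than 1 tag, 22 with at most 5% mitochondrial UMIs, 13 with thinned counts and 14 with the most frequent tag only. Unthinned shares lay outside the interval of the thinned share for 28 of the 30 values, and shares of cells with at least 2 UMIs for 30.

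The library has no replicate, so differences between mice or cultures cannot be seen. Most cells of a class with 1 called tag shared that tag, and cells of other tags were few. Kdr, Pgf and Tek rest on 261, 734 and 622 UMIs, and their levels were limited by depth. In macrophage-like cells, at 29906715 summed UMIs, a count of 0 allows up to 0.1 CPM.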

Other observations

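Small clusters that took no class name at resolution 1.0 held some of the highest levels of the members. Cluster 15 at resolution 1.0 (37 cells, led by Hmcn1, Slpi, Clu and the mesothelial marker Lrrn4 among others) had Vegfc at 408 CPM and Vegfa at 264 CPM, with Angpt1 at 64.2 CPM and Cma1 at 3180 CPM. Cluster 14 (106 cells, led by Kctd16, Dpp6 and Nalcn) had Vegfc at 178 CPM, Flt1 at 345 CPM and Nrp1 at 178 CPM. Its median depth was 5851.5 UMIs per cell, and both fibroblast and mast cell markers passed 50 CPM in it.

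Cluster 16 (33 cells) was led by Cdh19, Cadm2 and Nkain2 and took no class name. It had the highest Pgf of any cluster, at 24.1 CPM, with Nrp2 at 111 CPM and Nrp1 at 48.2 CPM. Cluster 13 (202 cells, median 3052.5 UMIs, led by Gm17019, Gm9758 and Speer4d) had Vegfa at 72.3 CPM and Vegfc at 68.1 CPM beside Cma1 at 16214 CPM. All 7 mast cell markers passed 50 CPM in it, as they also did in the fibroblast-like clusters. It stayed unnamed because its depth was low, against a library median of 12728 UMIs, and no mast cell marker was among its 10 leading genes. Those genes also included Il7r, Calca, Gzma and Trbc2. These clusters were described after their values were seen.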
